A study of Mus musculus with 17 samples.

Results

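The genes Ikzf1, Ikzf2 and Ikzf3 encode Ikaros, Helios and Aiolos, and 43 of the 66177 accessible regions measured by ATAC-seq were annotated to them. The members were all regions whose nearest transcript or nearest transcription start belonged to 1 of these genes, which gave 28 regions of Ikzf1, 13 of Ikzf3 and 2 of Ikzf2. All 43 were assigned by their nearest transcript, and for 6 Ikzf1 regions at the 3′ end of the gene the nearest start was that of the neighbouring gene Fignl1. The rule itself uses no accessibility value.

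Ikaros family proteins are zinc finger transcription factors. One cluster of fingers binds DNA and another joins family members into dimers, and the proteins recruit the NuRD complex and other corepressors to their sites. Ikaros is required for lymphoid development and for early B cell differentiation, Aiolos is best known from mature B cells and plasma cells, and Helios is found mainly in T cells, in particular regulatory T cells. Dnmt3a and Dnmt3b are the de novo DNA methyltransferases, which place new methyl groups on cytosines.

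Chromatin accessibility was measured in 16 libraries of naive B cells (nB, B220+ Fas- GL7-), phycoerythrin-specific germinal center B cells (GCB, B220+ Fas+ GL7+ PE+) and bone marrow plasma cells (BMPC, CD138+). All mice were of the background B6;129S4-Dnmt3atm3.1Enl Dnmt3btm5.1Enl/Mmnc and 8 to 12 weeks old at the start, and both genotypes carried floxed Dnmt3a and Dnmt3b. The Dnmt3-sufficient controls (C) were Dnmt3afl/fl Dnmt3bfl/fl without Cre, and the Dnmt3-deficient mice (KO) were Dnmt3afl/fl Dnmt3bfl/fl with 1 Cre allele, active in the B lineage. There were 3 C and 2 KO libraries of nB, 2 C and 4 KO libraries of GCB and 3 C and 2 KO libraries of BMPC. The nB came from lymph nodes of unimmunized male mice, GCB from lymph nodes 30 days after immunization with phycoerythrin in complete Freund's adjuvant, and BMPC from bone marrow of female mice at the same time. Each GCB library pooled 2 mice, female in all but the libraries M1, and each nB or BMPC library was 1 mouse. Cell type therefore cannot be told apart from immunization in nB against GCB, from tissue in GCB against BMPC, and from immunization, tissue and sex in nB against BMPC. GCB also differed from nB and BMPC in selection for phycoerythrin binding, in pooling of mice, in holding both sexes and in depth, given below. Libraries are named here by their group and number, and the GCB libraries by their pool (F1, F2, F3 or M1).

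Values are reads in a region scaled so that the regions of each library sum to 1000000 (RPPM). The libraries of nB held 4104875 to 6079018 reads in regions, those of GCB 907959 to 2280954 and those of BMPC 5357687 to 8232313, so a value of 3 reads ranged from 0.364 to 3.30 RPPM, a floor that covers counting error only. Regions on chrM held 7.43% to 10.1% of these reads in GCB and 2.56% to 4.59% in the other libraries. Among marker regions, Fcer2a averaged 42.4 and 47.5 RPPM in C and KO nB against 1.20 and 0.766 in BMPC, and Tnfrsf17 averaged 20.0 and 16.5 in BMPC and at most 3.56 elsewhere. The plasma cell genes Prdm1, Xbp1, Sdc1, Irf4 and Tnfrsf17 summed to 164 to 184 RPPM in nB, 112 to 131 in GCB and 211 to 228 in BMPC. Among them Irf4 was lower in BMPC, at 44.1 and 39.4 in C and KO against 57.4 and 58.4 in nB. The summed naive markers ranged from 170 to 193 RPPM in nB, 58.4 to 89.5 in GCB and 39.0 to 47.1 in BMPC, whereas the sum of the germinal center genes Bcl6, Fas, S1pr2 and Mybl1 was not highest in GCB, at 146 to 165 in nB, 120 to 161 in GCB and 175 to 192 in BMPC. The summed accessibility of the deleted genes did not separate the genotypes in any call, at 60.0 to 84.1 RPPM in C and 76.7 to 85.5 in KO BMPC for Dnmt3a and 50.8 to 53.3 and 54.5 to 61.8 for Dnmt3b, and it does not report the deletion itself.

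Ikzf1 lies on the + strand of mm9 chromosome 11 from 11586216 to 11672929, Ikzf3 on the - strand of chromosome 11 from 98326007 to 98407345, and Ikzf2 on the - strand of chromosome 1 from 69577784 to 69732534. Regions are named here by gene and by the distance of their centre from the gene's transcription start, in kb, with positive values downstream. Of the Ikzf1 regions 20 lay inside the gene, 6 upstream and 2 downstream, 12 of the Ikzf3 regions lay inside, and both Ikzf2 regions lay outside. A gene with any region had a median of 2 of them, and 112 of 14775 genes had more than Ikzf1 and 716 more than Ikzf3. The members were 164 to 1306 bp wide with a median of 489 bp, and all 43 had a mean of at least 1 RPPM over the libraries, with a median of 8.72 RPPM against 5.99 for all regions.

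The central 300 bases of 5 of the regions described below are shown as the + strand of mm9, chosen from the regions nearest the starts and those that differed most clearly between groups. Regions annotated as UTR are not shown. Capitals mark the Ikaros core TGGGAA on either strand.
Ikzf1 +11.3 kb, more open in BMPC, chr11:11597346-11597645: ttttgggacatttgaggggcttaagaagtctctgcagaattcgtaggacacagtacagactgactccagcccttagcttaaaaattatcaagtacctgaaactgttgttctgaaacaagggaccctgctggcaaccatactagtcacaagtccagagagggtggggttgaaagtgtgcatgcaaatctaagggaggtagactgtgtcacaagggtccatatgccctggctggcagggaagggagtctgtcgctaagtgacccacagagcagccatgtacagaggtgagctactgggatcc
Ikzf1 +80.1 kb, less open in KO GCB than in nB, chr11:11666163-11666462: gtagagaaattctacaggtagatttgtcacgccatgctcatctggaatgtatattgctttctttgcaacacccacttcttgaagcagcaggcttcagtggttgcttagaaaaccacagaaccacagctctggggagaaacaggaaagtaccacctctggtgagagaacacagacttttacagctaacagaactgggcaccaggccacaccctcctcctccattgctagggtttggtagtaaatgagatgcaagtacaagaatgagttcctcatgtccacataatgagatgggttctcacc
Ikzf1 -27.2 kb, more open in GCB, chr11:11558904-11559203: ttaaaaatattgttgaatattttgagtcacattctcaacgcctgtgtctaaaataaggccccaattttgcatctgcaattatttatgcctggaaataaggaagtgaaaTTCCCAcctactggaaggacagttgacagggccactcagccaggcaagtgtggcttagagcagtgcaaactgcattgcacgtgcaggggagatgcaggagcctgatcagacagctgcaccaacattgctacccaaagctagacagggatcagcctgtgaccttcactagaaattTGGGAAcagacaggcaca
Ikzf3 +75.4 kb, less open in GCB, chr11:98331772-98332071: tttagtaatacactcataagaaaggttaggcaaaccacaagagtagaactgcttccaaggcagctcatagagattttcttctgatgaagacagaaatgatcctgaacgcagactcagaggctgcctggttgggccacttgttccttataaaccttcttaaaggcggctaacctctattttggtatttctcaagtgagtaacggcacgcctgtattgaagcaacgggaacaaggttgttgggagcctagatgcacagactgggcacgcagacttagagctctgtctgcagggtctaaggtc
Ikzf2 -1.5 kb, the promoter, chr1:69733891-69734190: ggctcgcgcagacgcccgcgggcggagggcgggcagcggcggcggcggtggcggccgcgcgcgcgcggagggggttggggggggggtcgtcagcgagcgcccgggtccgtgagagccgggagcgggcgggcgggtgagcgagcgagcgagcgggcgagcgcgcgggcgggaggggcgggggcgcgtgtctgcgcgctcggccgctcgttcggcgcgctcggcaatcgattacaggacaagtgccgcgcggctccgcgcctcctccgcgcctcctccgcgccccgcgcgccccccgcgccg

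The windows differed in kind. The Ikzf2 promoter window held 64 CpG dinucleotides and the windows at the Ikzf1 and Ikzf3 starts held 45 and 44, against a median of 4 over the members and 5 over all regions. The -27.2 kb window of Ikzf1 held 2 Ikaros cores, 1 on each strand, and the +11.3 kb window held 2 IRF cores (GAAAC) and 1 octamer (ATGCAAAT). The +80.1 kb window held 2 RUNX cores (TGTGGT) and 1 IRF core.

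Searched on both strands in the central 300 bases, the Ikaros core TGGGAA occurred in 11 of the 43 members, or 25.6%, against 22.0% of the 65893 regions on named chromosomes. The PU.1 core GGAAGT occurred in 30.2% of members and 30.3% of all regions, the E2A core CAGCTG in 18.6% and 20.6%, and GAAAC in 60.5% and 55.4%. ATGCAAAT occurred in 4 members, or 9.30%, against 3.96%, and TGTGGT in 16, or 37.2%, against 24.5%. TGGGAA can overlap both GGAAGT and GAAAC, and neither Ikzf2 window held any of these cores.

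Over the whole locus, Ikzf1 accessibility was nearly level across cell types while its regions moved in opposite directions. The summed RPPM of the 28 Ikzf1 regions was 399, 364 and 351 in C nB, 400 and 383 in KO nB, 359 and 360 in C GCB, and 312, 328, 321 and 364 in KO GCB. The BMPC sums were 399, 401 and 400 in C and 384 and 375 in KO. Each group overlapped its neighbour in the order of means, which ran from C BMPC at 400 ± 1.25 (SD, n = 3) to KO GCB at 331 ± 22.9 (SD, n = 4). Within C and within KO, GCB still lay below BMPC without overlap, and within KO also below nB. No comparison of the sum reached a 2-fold change. The widest was nB to GCB in KO, at -0.24 on the log2 scale (SE 0.07, adjusted p = 0.0029).

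Ikzf3 sums were lowest in GCB and highest in BMPC. They measured 157, 156 and 160 RPPM in C nB, 176 and 152 in KO nB, 147 and 126 in C GCB, and 117, 122, 134 and 131 in KO GCB. BMPC reached 173, 198 and 191 in C and 190 and 204 in KO. In the order KO BMPC, C BMPC, KO nB, C nB, C GCB, KO GCB, only C nB and C GCB did not overlap as neighbours. From GCB to BMPC the difference was 0.45 on the log2 scale in C (SE 0.09, adjusted p = 0.000122) and 0.64 in KO (SE 0.08, adjusted p = 6.8e-07), both under 2-fold.

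The Ikzf2 sum, which rests on 2 regions of low signal, was the only one with called differences. It measured 3.65, 5.27 and 5.96 RPPM in C nB, 2.96 and 6.10 in KO nB, 15.4 and 14.1 in C GCB, and 18.7, 18.5, 14.0 and 11.2 in KO GCB. The sum in BMPC was 8.58, 4.38 and 2.80 in C and 5.95 and 4.85 in KO. Every GCB library lay above every nB and BMPC library. From nB to GCB the sum rose by 1.42 on the log2 scale in C (SE 0.34, adjusted p = 0.0010) and by 1.62 in KO (SE 0.32, adjusted p = 0.000134), beside 12.3% and 15.5% of all genes called higher. From GCB to BMPC it fell by 1.44 in C (adjusted p = 0.00077) and by 1.35 in KO (adjusted p = 0.00079), beside 11.9% and 12.3% of genes called lower. Without C GCB library F2 both C calls were lost (adjusted p = 0.0141 and 0.0115), and the KO calls were lost without KO nB library 1 (adjusted p = 0.0166) and KO BMPC library 2 (adjusted p = 0.0190). With the reads of each library thinned at random to the lowest total, the rises in C (adjusted p = 0.01007) and KO (adjusted p = 0.0580) were lost as well. At a pseudocount of 5 RPPM in place of 1, both C differences (0.99 and -0.98) and the KO fall (-0.97) were under 2-fold. From nB to BMPC, where 19.9% of genes in C and 20.1% in KO were called in either direction, none of the 3 sums was called.

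**Figure D1:**
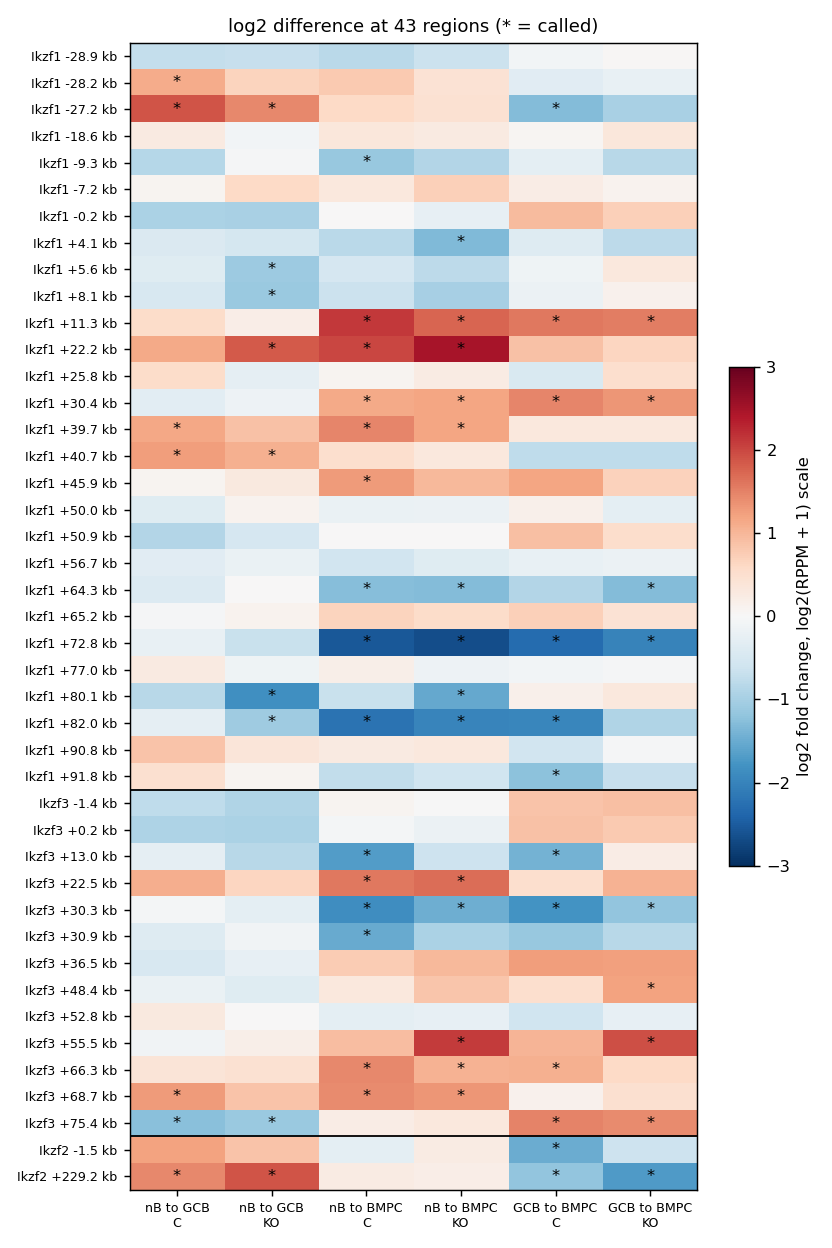
Log2 difference at each of the 43 regions (rows, by gene and distance from the start in kb) in the 6 comparisons of cell types (columns), with red for more accessible in the later cell type, blue for less, and an asterisk for a called difference. Called differences of both signs stand along Ikzf1 and Ikzf3, and the regions at their starts carry none.

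A difference was called where it reached 2-fold and an adjusted p no higher than 0.01 by limma. Of the 43 regions, 28 were called in at least 1 of the 6 comparisons of cell types, or 65.1%, beside 60.2% of all regions. They were 17 of Ikzf1, 9 of Ikzf3 and both of Ikzf2. From nB to BMPC 8 members rose and 7 fell in C, and 8 rose and 6 fell in KO. The background was 18.0% of all regions higher and 20.1% lower in C, and 18.4% and 16.9% in KO. The median log2 difference of the members was 0.09 in C and 0.19 in KO, against 0.03 and 0.08 over all regions. Ikzf1 contributed 5 regions that rose and 4 that fell in C and 4 and 5 in KO, and Ikzf3 contributed 3 and 3 in C and 4 and 1 in KO. The same 11 regions were called in the same direction in both genotypes, and none in opposite directions.

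From nB to GCB, 6 members rose and 1 fell in C, beside 14.2% and 8.47% of all regions, and 4 rose and 5 fell in KO, beside 18.4% and 7.84%. The median log2 difference of the members was -0.10 in C and -0.07 in KO, against 0.05 and 0.12 over all regions. Ikzf1 had 4 that rose and none that fell in C but 3 and 4 in KO, and the difference between the genotypes was tested by the interactions given below. From GCB to BMPC, 4 members rose and 8 fell in C, beside 11.3% and 19.1%, and 5 rose and 4 fell in KO, beside 12.1% and 19.9%. Here the member medians were -0.07 and 0.23, against -0.06 and -0.03. These comparisons share libraries, so each stands on its own values.

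The region at the Ikzf1 start (-0.2 kb, chr11:11585367-11586596, promoter, 5′ UTR, exon and intron) was the most accessible member and was lowest in GCB. C nB measured 73.8, 63.9 and 61.0 RPPM and KO nB 67.6 and 63.2. C GCB measured 30.8 and 37.0 and KO GCB 40.8, 35.0, 32.9 and 25.2, and C BMPC then measured 63.6, 62.0 and 73.7 and KO BMPC 53.3 and 56.6. All 6 GCB libraries lay below all others. The log2 difference from nB to GCB was -0.95 in C (SE 0.15, adjusted p = 1.1e-05) and -0.97 in KO (SE 0.14, adjusted p = 3.3e-06), just short of 2-fold. From GCB to BMPC it was 0.95 and 0.72. The nB to GCB difference passed the fold limit without C GCB library M1 (-1.08), C nB library 3 (-1.003), KO nB library 2 (-1.01) or KO GCB library F1 (-1.06), and in KO with TMM scaling (-1.07). The GCB to BMPC difference in C passed it without C GCB library M1 (1.08) and with TMM scaling (1.0048).

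A stretch of Ikzf1 introns from +11.3 to +45.9 kb held the regions that opened towards BMPC. All 7 regions there had a log2 difference above 0 from nB to BMPC in both genotypes, 5 of them were called in C and 4 in KO, and none fell. The stretch was marked out after its values were seen and carries no test of its own. Its first region, +11.3 kb (chr11:11597142-11597848, intron, annotated also as a promoter), measured 5.85, 7.16 and 5.58 RPPM in C nB, 8.06 and 8.46 in KO nB, 8.36 and 10.8 in C GCB, and 9.91, 8.27, 7.01 and 14.7 in KO GCB. It then measured 31.5, 29.7 and 29.7 in C BMPC and 27.7 and 32.5 in KO BMPC. The BMPC libraries lay above all others with a wide gap. The rise from nB to BMPC was 2.13 on the log2 scale in C (SE 0.21, adjusted p = 1.3e-09) and 1.74 in KO (SE 0.26, adjusted p = 2.1e-06), and that from GCB to BMPC 1.58 and 1.55.

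Other regions of this stretch followed different courses. At +30.4 kb the nB and GCB means lay between 15.6 and 19.6 RPPM, and the C BMPC mean was 44.5 ± 5.92 (SD, n = 3) and the KO BMPC mean 42.5 ± 6.23 (SD, n = 2). At +39.7 kb accessibility was already higher in GCB, with means of 10.2 in C nB, 24.4 in C GCB and 29.9 in C BMPC, and the rise from nB to GCB was called in C at 1.15 (SE 0.21, adjusted p = 6.1e-05). At +22.2 kb values were 0.186 to 1.32 RPPM in nB, 2.20 to 8.81 in GCB and 5.11 to 8.50 in BMPC, and the nB values rest on 9 reads in C and 9 in KO. At +40.7 kb the rise was seen in GCB, by 1.25 in C and 1.07 in KO, with no call in BMPC against nB.

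**Figure D2:**
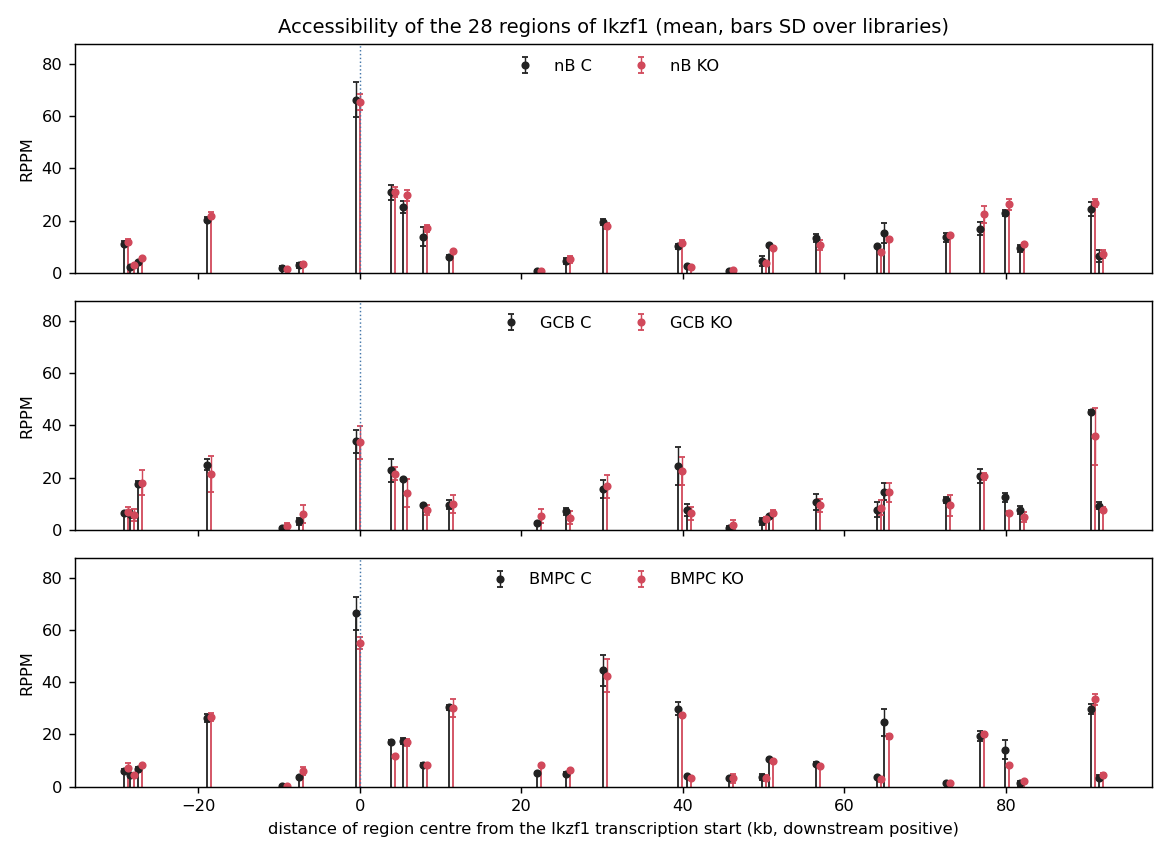
Mean RPPM of the 28 Ikzf1 regions (vertical axis, bars show the SD over libraries) against the distance of the region's centre from the transcription start in kb, for nB, GCB and BMPC of C (black) and KO (red) mice. The start region stands at 66.2 RPPM in C nB, 33.9 in C GCB and 66.4 in C BMPC, and the regions at +11.3 and +30.4 kb are tallest in BMPC.

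Several regions in the 3′ part of the gene moved the other way. Of the 6 regions from +64.3 to +82.0 kb, 3 fell from nB to BMPC in C and 4 in KO, and none was called higher. The log2 difference was above 0 for 2 of the 6 in C and 1 in KO, among them +65.2 kb, at means of 15.2 RPPM in C nB and 24.6 in C BMPC (log2 0.67, adjusted p = 0.0073, under 2-fold). This stretch too was marked out after its values were seen. The +72.8 kb region (chr11:11658846-11659241, annotated 3′ UTR, exon and intron) measured 15.6, 12.6 and 12.5 RPPM in C nB, 14.6 and 14.4 in KO nB, 10.6 and 12.2 in C GCB, and 4.41, 10.8, 8.33 and 14.0 in KO GCB. BMPC values were 1.30, 1.64 and 1.56 in C and 1.58 and 1.31 in KO. All BMPC libraries lay below all others, and nB and GCB overlapped across genotypes but within neither C nor KO. The fall from nB was 2.54 on the log2 scale in C (log2 -2.54, SE 0.28, adjusted p = 8.3e-09) and 2.67 in KO (log2 -2.67, SE 0.34, adjusted p = 2.1e-07). The +82.0 kb intronic region fell by 2.22 in C and 1.98 in KO, from means of 9.45 and 11.0 RPPM in nB to 1.37 and 2.03 in BMPC.

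Between them, the +80.1 kb intronic region (chr11:11666062-11666562) was lower outside nB and had the lowest p of the 43 regions for the genotype difference in GCB. It measured 23.4, 21.5 and 23.6 RPPM in C nB and 27.8 and 24.8 in KO nB. In GCB the values were 13.6 and 11.2 in C and 6.61, 5.73, 7.01 and 6.99 in KO. In BMPC they were 10.1, 16.4 and 16.2 in C and 8.50 and 8.21 in KO. KO lay below C without overlap in both GCB and BMPC, and above C in nB. The fall from nB to GCB was called in KO (log2 -1.85, SE 0.20, adjusted p = 2.5e-08) but was under 2-fold in C (-0.83, SE 0.21, adjusted p = 0.0024), and from nB to BMPC it was -1.54 in KO and -0.67 in C. The difference of KO from C was -0.82 in GCB (SE 0.20, adjusted p = 0.0788) and -0.68 in BMPC (SE 0.21, adjusted p = 0.154). The interaction of genotype with GCB against nB was -1.02 (adjusted p = 0.697) and with BMPC against nB -0.87 (adjusted p = 0.652), so neither passed over all regions. With so few libraries in each group, genotypes can lie apart without overlap by chance, here and at the regions below. They also lay apart in BMPC at other members, such as Ikzf1 -7.2 kb (adjusted p = 0.739) and +22.2 kb (adjusted p = 0.799). The share of all regions that do so was not computed.

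Upstream of Ikzf1, the intergenic -27.2 kb region (chr11:11558787-11559319), whose window holds the pair of Ikaros cores, was open mainly in GCB. C nB measured 4.39, 4.14 and 3.72 RPPM and KO nB 6.09 and 5.71. C GCB measured 17.2 and 18.3 and KO GCB 22.0, 14.6, 13.2 and 22.4, and C BMPC 7.67, 5.66 and 6.70 and KO BMPC 8.14 and 8.77. The GCB libraries lay above all others, and BMPC above nB within C and within KO. The rise from nB to GCB was 1.88 on the log2 scale in C (SE 0.24, adjusted p = 5.7e-07) and 1.43 in KO (SE 0.23, adjusted p = 1.2e-05). From GCB to BMPC the difference was -1.29 in C (SE 0.24, adjusted p = 7.1e-05) and -0.98 in KO (SE 0.23, adjusted p = 0.00084), the latter under 2-fold. Without KO GCB library F2 or F3, or without KO BMPC library 2, the KO difference was -1.06, -1.11 and -1.02 and was called. The C difference from GCB to BMPC was not called at a pseudocount of 5 (-0.96) or after thinning to the lowest total (adjusted p = 0.0456), nor was the KO rise from nB to GCB after thinning (adjusted p = 0.0244).

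The neighbouring -28.2 kb region rose in GCB in C (1.11, adjusted p = 0.0059), from 2.17 to 5.93 RPPM on average. Of the other regions of Ikzf1, 11 were called in none of the 6 comparisons, among them the intergenic -18.6 and +90.8 kb regions. The latter averaged 24.6 RPPM in C nB, 44.9 in C GCB and 29.7 in C BMPC. In KO GCB its libraries ranged from 20.9 to 46.8 RPPM.

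**Figure D3:**
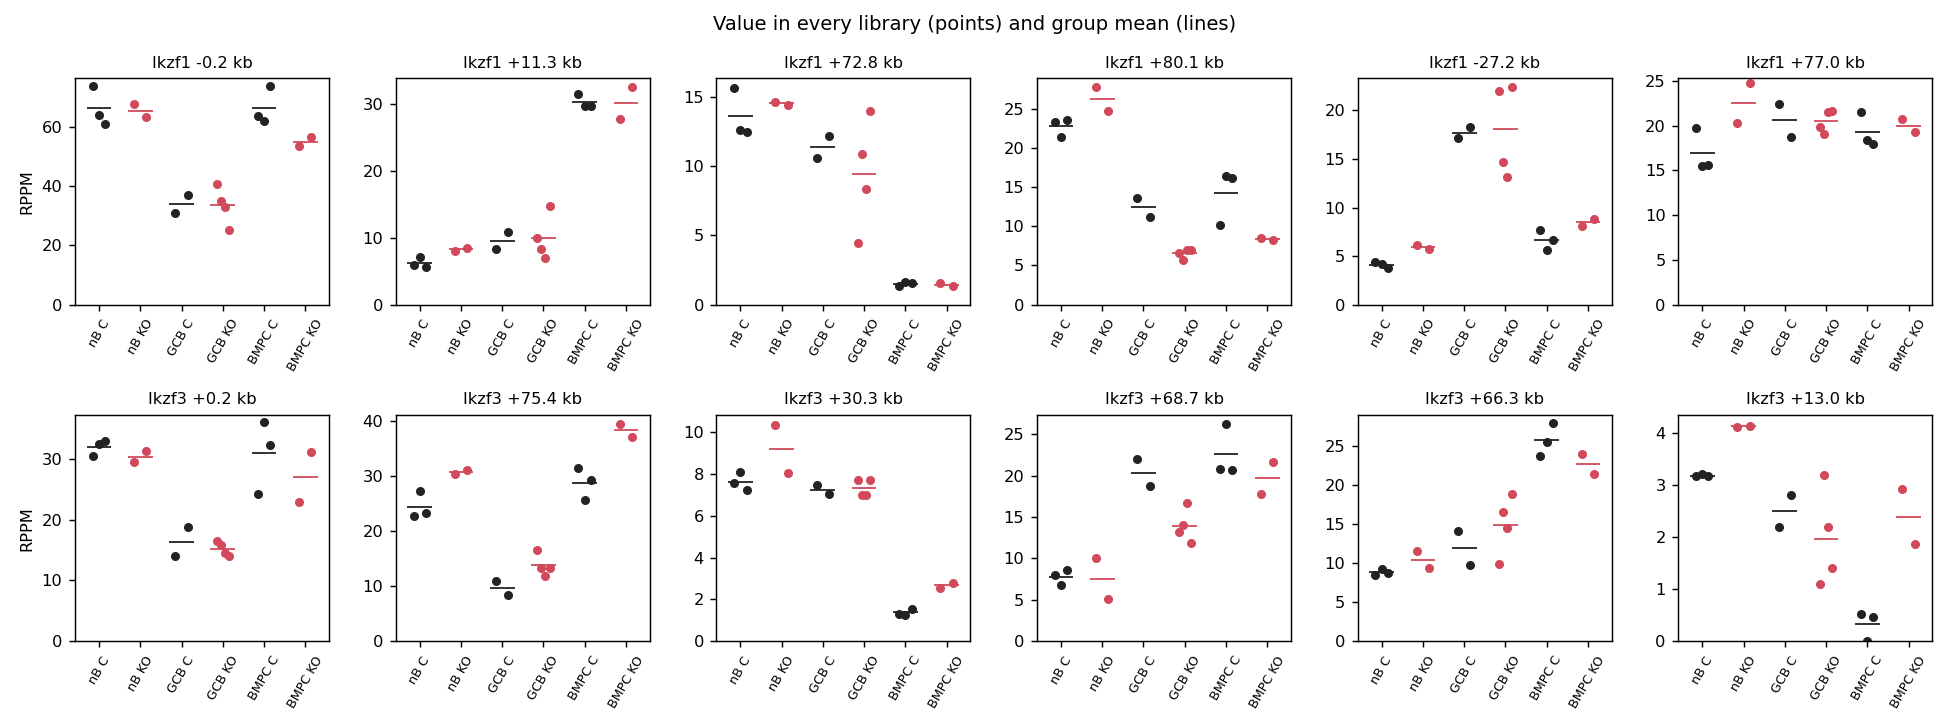
RPPM in every library (points) and the group mean (lines) at 12 regions of Ikzf1 and Ikzf3, with C in black and KO in red and a separate vertical scale for each region. At Ikzf1 +80.1 kb the KO libraries lie below the C libraries in GCB and BMPC, and at Ikzf3 +13.0 kb the KO BMPC libraries lie above the C BMPC libraries.

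At Ikzf3 the start region (+0.2 kb, chr11:98406816-98407527, promoter, 5′ UTR, exon and intron) had the same course as that of Ikzf1. It measured 30.5, 32.4 and 32.9 RPPM in C nB, 29.4 and 31.3 in KO nB, 14.1 and 18.7 in C GCB, and 16.5, 15.9, 14.5 and 14.0 in KO GCB. In BMPC it measured 24.3, 36.1 and 32.4 in C and 23.0 and 31.2 in KO. The GCB libraries lay below all others, and nB and BMPC overlapped. The log2 difference from nB to GCB was -0.93 in C (SE 0.18, adjusted p = 0.00014) and -0.95 in KO (SE 0.17, adjusted p = 4.7e-05), and from GCB to BMPC 0.87 and 0.78, all under 2-fold. It passed the fold limit from nB to GCB without C GCB library M1 (-1.13) and, in KO, with TMM scaling (-1.05) and by both edgeR tests (-1.01). From GCB to BMPC in C it did so without C GCB library M1 (1.07) or C BMPC library 1 (1.03). A low in GCB was not particular to the family. Among marker regions at a start, C means in nB, GCB and BMPC were 44.5, 31.2 and 65.6 RPPM for Prdm1 and 60.8, 40.6 and 75.5 for Xbp1. Fas, S1pr2, Mybl1 and Tnfrsf17 were instead lowest in nB, and Fcer2a, Cr2 and Cd22 in BMPC. The share over all start regions was not computed.

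The fall and recovery were deeper at the 3′ end of Ikzf3, at the intronic +75.4 kb region (chr11:98331316-98332526). C nB measured 22.7, 27.3 and 23.3 RPPM and KO nB 30.4 and 31.1. C GCB measured 11.0 and 8.43 and KO GCB 16.5, 13.4, 11.8 and 13.3, and C BMPC 31.5, 25.5 and 29.3 and KO BMPC 39.5 and 37.1. GCB lay below nB and BMPC throughout, and KO lay above C without overlap in each cell type. The fall from nB to GCB was called in C (log2 -1.25, SE 0.18, adjusted p = 1.9e-06) and in KO (log2 -1.12, SE 0.17, adjusted p = 3.8e-06). At a pseudocount of 5 the KO fall was -0.94, under 2-fold. The rise from GCB to BMPC was 1.48 (SE 0.18, adjusted p = 7.2e-08) and 1.42 (SE 0.17, adjusted p = 5.3e-08). KO against C was 0.46 in GCB (adjusted p = 0.256) and 0.41 in BMPC (adjusted p = 0.410).

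A pair of regions about an internal part of Ikzf3 opened after nB. The +68.7 kb region (chr11:98338271-98339006, 5′ UTR, exon and intron) measured 8.04, 6.78 and 8.56 RPPM in C nB, 10.0 and 5.12 in KO nB, 22.0 and 18.7 in C GCB, and 13.2, 14.0, 16.7 and 11.9 in KO GCB. BMPC measured 20.8, 26.3 and 20.7 in C and 17.9 and 21.7 in KO. All GCB and BMPC libraries lay above all nB libraries. The rise from nB was 1.28 in C GCB (SE 0.23, adjusted p = 4.9e-05), 1.42 in C BMPC (SE 0.20, adjusted p = 9.5e-07) and 1.33 in KO BMPC (SE 0.25, adjusted p = 6.3e-05), while the KO GCB difference of 0.85 was under 2-fold. It was 1.28 and called without KO nB library 1, and without KO nB library 2 the KO BMPC rise of 0.91 was not called (adjusted p = 0.01003). After thinning, the C GCB rise (adjusted p = 0.0411) and the KO BMPC rise (adjusted p = 0.0174) were lost.

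The +66.3 kb region (chr11:98340689-98341431, intron, annotated also as a promoter) measured 8.53, 9.23 and 8.75 RPPM in C nB, 11.5 and 9.45 in KO nB, 14.1 and 9.84 in C GCB, and 9.91, 16.5, 14.5 and 18.9 in KO GCB. BMPC measured 23.8, 25.5 and 28.0 in C and 24.1 and 21.5 in KO. Only BMPC stood clear of the rest. The rise from nB to BMPC was 1.44 in C (SE 0.20, adjusted p = 4.9e-07) and 1.05 in KO (SE 0.24, adjusted p = 0.00067), and from GCB to BMPC in C 1.06 (SE 0.22, adjusted p = 0.00022). The last was lost without C GCB library M1 (0.83, adjusted p = 0.0160), and the KO rise was lost without KO nB library 2 (0.92, adjusted p = 0.0164) or KO BMPC library 1 (0.97, adjusted p = 0.0129). It was also lost with TMM scaling (0.9926), at a pseudocount of 5 (0.84) and after thinning (adjusted p = 0.0687), and the C difference from GCB at a pseudocount of 5 (0.87) and after thinning (adjusted p = 0.0358).

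The +30.3 kb region of Ikzf3 (chr11:98376822-98377310, annotated 3′ UTR, exon and intron) closed in BMPC. Its nB values were 7.55, 8.10 and 7.26 RPPM in C and 10.4 and 8.07 in KO. Its GCB values were 7.48 and 7.03 in C and 7.71, 7.0, 7.01 and 7.69 in KO, and its BMPC values 1.30, 1.28 and 1.56 in C and 2.55 and 2.80 in KO. BMPC lay below all others, and within BMPC the KO libraries lay above the C libraries. The fall from nB to BMPC was called in C (log2 -1.86, SE 0.23, adjusted p = 9.4e-08) and in KO (log2 -1.47, SE 0.28, adjusted p = 9.5e-05), and KO against C in BMPC was 0.63 (adjusted p = 0.367). The KO fall was lost after thinning (adjusted p = 0.0623), and at a pseudocount of 5 both falls were under 2-fold, at -0.99 in C and -0.88 in KO. At +55.5 kb the rise from nB to BMPC was called in KO only (2.10, adjusted p = 0.00033), from 4 reads in the KO nB libraries to 64 in KO BMPC, and its interaction with genotype was 1.19 (adjusted p = 0.962).

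**Figure D4:**
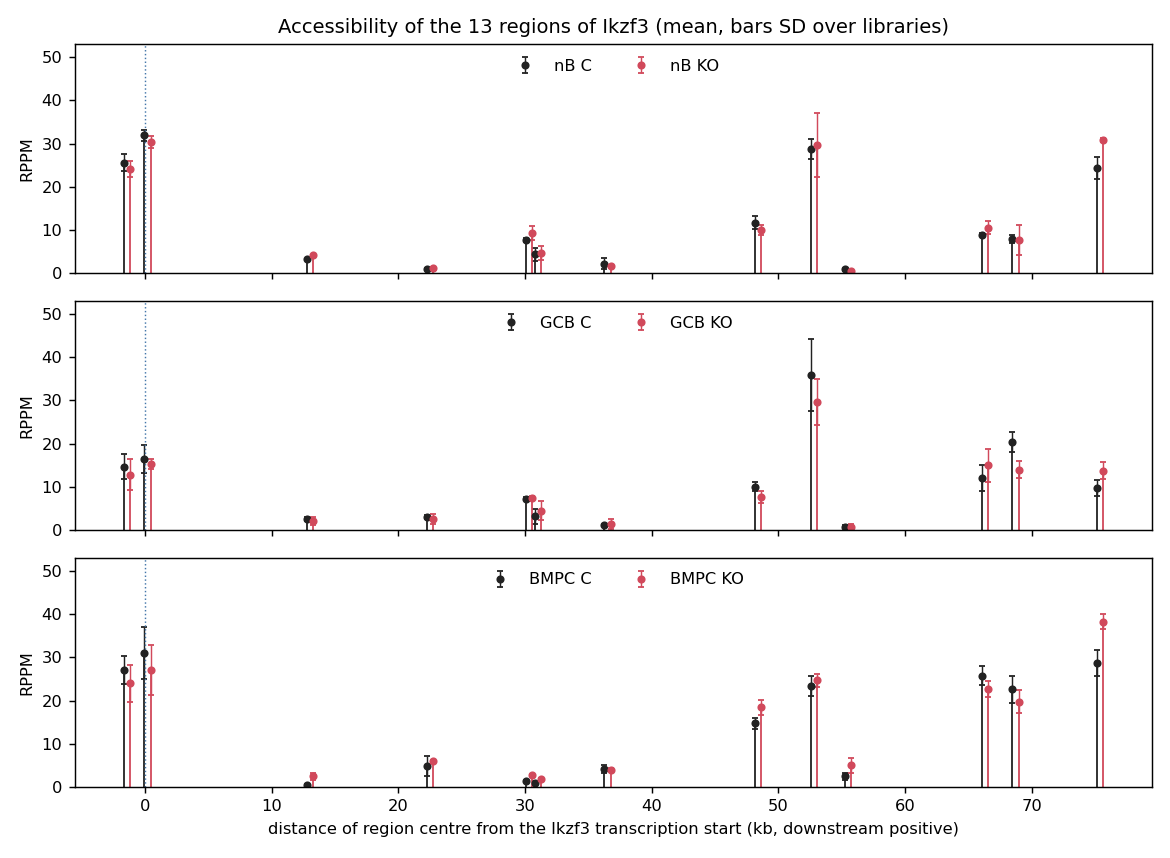
Mean RPPM of the 13 Ikzf3 regions (vertical axis, bars show the SD over libraries) against the distance of the region's centre from the transcription start in kb, for nB, GCB and BMPC of C (black) and KO (red) mice. The regions at +0.2 and +75.4 kb are lowest in GCB, and those at +66.3 and +68.7 kb are low in nB, with means of 7.58 to 10.5 RPPM, and reach 19.8 to 25.8 RPPM in BMPC.

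Ikzf2 had a promoter region at -1.5 kb (chr1:69733713-69734367) and a distal one at +229.2 kb (chr1:69503210-69503534, intergenic, beyond the 3′ end). The promoter region measured 2.92, 2.64 and 4.09 RPPM in C nB, 1.65 and 3.35 in KO nB, 9.24 and 7.96 in C GCB, and 6.61, 8.91, 3.95 and 2.80 in KO GCB. BMPC measured 6.76, 1.82 and 0.779 in C and 3.64 and 2.43 in KO. C GCB lay above nB and BMPC, whereas KO GCB overlapped KO nB and KO BMPC. Only the fall from GCB to BMPC in C was called (log2 -1.50, SE 0.45, adjusted p = 0.0063). It was lost without either C GCB library or without C BMPC library 2 or 3, at adjusted p between 0.0266 and 0.0611, after thinning (adjusted p = 0.0581) and at pseudocounts of 0.1 (adjusted p = 0.0145) and 5 (-0.81). From nB to GCB the difference was 1.20 in C (SE 0.45, adjusted p = 0.031) and 0.86 in KO (adjusted p = 0.094).

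The distal region measured 0.731, 2.64 and 1.86 RPPM in C nB, 1.32 and 2.76 in KO nB, 6.16 and 6.09 in C GCB, and 12.1, 9.55, 10.1 and 8.39 in KO GCB. BMPC measured 1.82, 2.55 and 2.02 in C and 2.31 and 2.43 in KO. The GCB libraries lay above all others. The rise from nB to GCB was 1.44 in C (SE 0.33, adjusted p = 0.00084) and 1.89 in KO (SE 0.31, adjusted p = 1.6e-05), and the fall to BMPC was 1.19 in C (log2 -1.19, SE 0.33, adjusted p = 0.0035) and 1.70 in KO (log2 -1.70, SE 0.31, adjusted p = 4.6e-05). The C fall was lost without either C GCB library or without C BMPC library 1 or 3, at adjusted p between 0.0122 and 0.0245. With libraries thinned to the lowest total, the rises from nB to GCB in C (adjusted p = 0.0777) and KO (adjusted p = 0.0722) and the C fall (adjusted p = 0.0695) were all lost. At a pseudocount of 0.1 the C fall was not called (adjusted p = 0.0115). At a pseudocount of 5 the C rise (0.73) and the C fall (-0.64) were under 2-fold. Without the distal region the Ikzf2 sum is the promoter region alone, which was not called from nB to GCB. The share of chrM reads given above was also higher in GCB, and its part in the Ikzf2 values was not tested.

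Of the markers of T and NK cells, in which Helios is best known, 2 of 6 genes had a region, Cd3e and Cd4, whereas Cd3g, Cd8a, Foxp3 and Ncr1 had none. Their summed level was 2.63 to 4.90 RPPM in nB, 9.79 to 12.8 in GCB and 10.6 to 19.2 in BMPC. In GCB and BMPC most of it came from a region 5589 bp from the Cd4 start, and in nB most came from Cd3e. Cd4 averaged 0.867 RPPM in C nB, 11.3 in C GCB and 15.9 in C BMPC, and Cd3e averaged 3.02 in C nB, 0.660 in C GCB and 0.538 in C BMPC. The myeloid list (4 of 5 genes) summed to 17.7 to 22.0 RPPM in nB, 10.8 to 21.9 in GCB and 9.12 to 14.0 in BMPC, and the erythroid list (2 of 3) to 47.6 to 60.2, 36.3 to 53.5 and 61.3 to 70.8. Per the study's methods the flow cytometry panels also stained T cell and myeloid surface antigens, with removal of auto-fluorescent cells as the stated aim. The part of other cells in these values was not tested, and fewer cells of a type cannot be told apart from less open chromatin per cell.

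KO was compared with C within each cell type. KO mice carried the Cre allele and C mice did not, so loss of Dnmt3a and Dnmt3b cannot be told apart from the presence of Cre. No member was called between KO and C in nB, GCB or BMPC, beside 0%, 0.0317% and 0.104% of all regions, and no member passed any of the 3 interactions of genotype and cell type, beside 0% of all regions for each. The 0.104% in BMPC comprised 60 regions higher and 9 lower in KO, or 53 and 17 with TMM scaling. By limma, 1 member had an unadjusted p under 0.05 in nB, 5 in GCB and 5 in BMPC, that is 2.33%, 11.6% and 11.6%, beside 1.67%, 11.8% and 9.55% of all regions. The lowest adjusted p was 1 in nB, 0.0788 in GCB and 0.0637 in BMPC, and over the interactions it was 0.274. The median log2 difference of the members was 0.10 in nB, -0.09 in GCB and 0.0011 in BMPC, against -0.01, 0.03 and 0.03 over all regions. None of the 3 gene sums was called, beside 0%, 0.0203% and 0.217% of genes.

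The largest genotype difference was at the intronic +13.0 kb region of Ikzf3 (chr11:98394223-98394529) in BMPC. C nB measured 3.17, 3.20 and 3.16 RPPM, KO nB 4.11 and 4.13, C GCB 2.20 and 2.81, and KO GCB 1.10, 3.18, 2.19 and 1.40. C BMPC measured 0.520, 0 and 0.467 and KO BMPC 2.92 and 1.87, that is 7 reads over 3 libraries against 34 reads over 2. The region closed from nB to BMPC in C (log2 -1.68, adjusted p = 4.8e-05), and KO BMPC libraries lay above all C BMPC libraries. KO against C was 1.36 on the log2(RPPM + 1) scale (SE 0.35, adjusted p = 0.0637), which understates a change from so low a level. On the recovered reads, edgeR's quasi-likelihood test gave 2.70 (adjusted p = 0.00105) and its likelihood ratio test 2.70 (adjusted p = 3.6e-05), and this was the only member that either called. The quasi-likelihood test called 1.96% of all regions in BMPC. At an unadjusted p under 0.05 it had 10 of the 43 members, or 23.3%, and 18.4% of all regions. The interaction with BMPC against GCB was 1.64 (adjusted p = 0.274).

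In nB the smallest p was at Ikzf1 +77.0 kb (chr11:11662850-11663652, intron), at 19.7, 15.4 and 15.6 RPPM in C and 20.2 and 24.8 in KO. The difference was 0.39 (SE 0.18, adjusted p = 1). GCB measured 22.4 and 18.7 in C and 19.8, 19.1, 21.5 and 21.7 in KO, and BMPC 21.5, 18.4 and 17.9 in C and 20.8 and 19.2 in KO. The genotypes did not overlap in nB and overlapped in GCB and BMPC.

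The other family members and the partners of the family were read from lists of genes. Ikzf4 (Eos) and Ikzf5 (Pegasus) together had 4 regions, none of which was called in any of the 9 comparisons by limma. Their sums stayed between 11.3 and 12.8 RPPM for Ikzf4 and between 43.5 and 54.7 for Ikzf5 on group average. Of 16 genes of NuRD and related corepressors, 15 had regions, 85 in all. From nB to BMPC 12 of these rose and 17 fell in C and 11 rose and 12 fell in KO, with medians of -0.09 and -0.07. Of all regions 18.0% rose and 20.1% fell in C and 18.4% rose and 16.9% fell in KO, with medians of 0.03 and 0.08. In BMPC 1 of the 85 was called higher in KO than in C, beside 0.104% of all regions called in either direction. The sum of Mta2, a NuRD subunit, averaged 3.11 ± 0.744 RPPM over the 3 libraries of C nB, 1.57 ± 0.893 over the 2 of C GCB and 30.9 ± 4.77 over the 3 of C BMPC, with SDs over libraries. The rise from nB to BMPC was 2.96 (adjusted p = 7.3e-10). Chd3, a NuRD remodeler subunit, went from 93.3 ± 9.05 in C nB to 27.1 ± 3.45 in C GCB (log2 -1.75, adjusted p = 1.0e-10) and 44.8 ± 2.81 in C BMPC. All other sums of this list stayed under 2-fold from nB to BMPC in C, from -0.85 for Hdac1 to 0.26 for Mbd2.

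Of 7 genes known as Ikaros or Aiolos targets in B cell precursors, 4 had regions, 26 in all. From nB to BMPC 2 of these rose and 10 fell in C and 2 rose and 7 fell in KO, with medians of -0.87 and -0.53, beside the shares and medians of all regions just given. From nB to GCB 2 rose and 5 fell in C and 2 rose and 4 fell in KO, beside 14.2% and 8.47% of all regions in C and 18.4% and 7.84% in KO. Dntt, which encodes the terminal transferase of V(D)J joining, fell from 25.5 RPPM in C nB to 10.8 in C BMPC (log2 -1.21, adjusted p = 1.7e-05), and Il7r, the interleukin 7 receptor chain, measured 20.7 in C nB and 11.4 in C BMPC (log2 -0.82, adjusted p = 0.00063), under 2-fold. Ccnd3, with 13 of the 26 regions, measured 250 in C nB and 180 in C BMPC (log2 -0.47, adjusted p = 5.0e-05), also under 2-fold. The remaining gene, Igll1, differed by -0.20 in C (adjusted p = 0.604) and 0.32 in KO (adjusted p = 0.504). No target region was called between genotypes.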

How the data were processed

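ATAC-seq was performed by the authors on sorted cells. Per the labels and the study's methods they mapped reads to mm9 with Bowtie, called peaks with MACS2 in each sample and took the union of the peaks. The submitters' processing notes name Bowtie 1.1.1, MACS2 2.1.0.20140616, Picard 1.127 and edgeR 3.12.1. The deposited values are RPM scaled to reads in regions (RPPM). The authors' own log2 fold change, likelihood ratio, p-value and FDR columns for 9 comparisons were not used. The labels list 17 libraries, and 1 KO BMPC library has no RPPM values to analyse. The study's methods state that 1 sample was left out for its share of reads in peaks, without naming it.

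Values were whole multiples of 1 read in 100% of cells (tolerance 0.001), and these reads were used for edgeR 4.0.16, for the floor of 3 reads and for thinning. Each region was fitted in R 4.3.3 by limma 3.58.1 using log2(RPPM + 1), with 6 group means over 16 libraries, a variance trend and Benjamini-Hochberg adjustment over all 66177 regions, or over 14775 genes for sums. A call required a 2-fold change and an adjusted p no higher than 0.01. On the log2(RPPM + 1) scale a change of a low region is understated. On simulated data with 200 regions changed 4-fold, limma called 77.5% for BMPC against nB in C and 65.0% for KO against C in BMPC. The changed regions were drawn from those above a minimum mean, all other regions had the same mean in every group, and the dispersion was fixed. No comparison with GCB was simulated, so these shares are not the power for the members. P-values measure the spread between libraries, which came from different mice or pools.

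Every member was counted. Values in each library are given for the region nearest each start, the 4 other called regions of each gene with the smallest p over the 6 groups, and, in each cell type, the region whose genotype difference had the lowest p. Other regions were named after their values were seen. The members and lists were chosen with earlier results of these data known. A marker gene, the sequence of the distal Ikzf2 region and a check of that region's values that needs this sequence are not reported here, and its called differences in GCB carry that limit. Sequences were read from the mm9 genome with pysam 0.24.0. Python 3.11.15 (pandas 2.3.3, numpy 2.4.6, matplotlib 3.10.9) made tables and plots. Alternatives were pseudocounts of 0.1 and 5, TMM scaling, a filter on means under 1 RPPM, edgeR's quasi-likelihood and likelihood ratio tests, each library left out, a replicate block and, added after the data were seen, thinning to the lowest total.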

Additional observations from a re-analysis of the deposited data

Results flagged for a closer look

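Of 46 values tested in the group of 4 KO GCB libraries for a library far from the others, 1 stood out, and chance alone marks about 1 in 20. At the Ikzf1 +4.1 kb region (promoter, 5′ UTR, exon and intron) KO GCB library M1 measured 25.2 RPPM and the other 3 between 19.8 and 20.6, so that the gap took 0.854 of the range, above Dixon's 95% critical value. Libraries M1 and F1, F2 and F3 also differ in sex, whose part was not tested. The region also fell from nB to BMPC in KO (log2 -1.31, adjusted p = 1.2e-06), in a fit whose spread is estimated from all libraries, this one included.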

How the results depend on the processing

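At a pseudocount of 5 RPPM the number of members called dropped from 7 to 2 for nB to GCB in C, 15 to 7 for nB to BMPC in C, 12 to 4 for GCB to BMPC in C, 9 to 3 for nB to GCB in KO, 14 to 8 for nB to BMPC in KO and 9 to 5 for GCB to BMPC in KO, and the gene sums called from 4 to 1. A larger pseudocount shrinks the fold of low regions by construction. With all libraries thinned to the lowest total the counts were 4 for nB to GCB and 5 for GCB to BMPC in C, 3 for nB to GCB and 7 for nB to BMPC in KO and 2 for the gene sums, and fewer reads remained by construction. By both edgeR tests KO against C in BMPC had 1 member called instead of 0. With 1 library left out the counts ranged from 5 to 9, 13 to 15, 10 to 14, 7 to 10, 10 to 14 and 8 to 11 in the order above, 0 to 0 for KO against C in nB, GCB and BMPC and for the interactions, and 2 to 4 for the gene sums, all 4 of which belong to Ikzf2.

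With the GCB pools F2 and M1 as a replicate block the counts were 7, 15, 12, 9, 14 and 9, with 0 between genotypes and 4 gene sums, as without it. Pools of the same name share their sex across genotypes, and nothing in the labels says that they share more. The correlation of their deviations was 0.0363 for F2 and 0.0638 for M1, and with 2 C pools, whose deviations mirror each other, this says little about pairing. Of 1320 values of single regions or sums under the alternatives, 1249 kept their direction and side of the limits, 48 lost a call, 23 gained one and 0 changed direction. The depth of GCB, down to 907959 reads, limits what could be called there.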

Other observations

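Genes whose summed accessibility followed that of a family member most closely over the 16 libraries were listed by Pearson's r among genes with at least 3 regions, as a description that also carries shared depth and cell type. For Ikzf1 they were AI314180 (r = 0.927), Cerk (0.907) and Atl3 (0.902), the only 3 genes of 7244 above 0.9. For Ikzf3 they were Ciz1 (0.965), Cyb561a3 (0.964) and Spag9 (0.963), among 240 genes above 0.9. For Ikzf2 they were Reep1 (0.955), Macrod2 (0.953) and Myrfl (0.952), among 70 of 7245.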
